A study of Mus musculus with 15 samples.

Results

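Notch receptors, ligands and targets were examined as a group of 10 genes in the skin of ultraviolet-irradiated mice. The 10 are the receptors Notch1, Notch2 and Notch3, the ligands Jag1, Jag2, Dll1 and Dll4, and the target genes Hes1, Hey1 and Nrarp. They were taken by symbol from 4 deposited tables of differential expression, in which all 10 were listed among 24027 symbols common to the tables. Notch proteins are receptors that sit in the membrane of one cell and are engaged by Jagged or Delta-like ligands on its neighbour. Engagement lets proteases of the ADAM family and then gamma-secretase cut the receptor, and the freed intracellular part joins the DNA-binding protein RBPJ to switch on target genes of the HES and HEY families. In epidermis the pathway is known for driving keratinocytes from the basal layer into differentiation, and in vessels Dll4 and Notch set the pattern of sprouting.

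SKH1 mice, which lack a normal coat, were all female and 6 to 8 weeks old. Ultraviolet B at 500 J/m2 was given 5 times weekly over 10 weeks to raise actinic keratosis, a precancerous growth of keratinocytes. Either placebo cream or GZ21T cream was applied, 0.25 g at a time, also 5 times weekly. There were 15 libraries in 5 groups of 3: placebo skin taken from lesions, from around them, from irradiated sites without lesions and from sites without UV exposure, and lesions of GZ21T mice. No group of GZ21T mice other than lesions was sequenced among the samples used here, and all tissue was whole skin, so a lower value may mean fewer cells of a type or less RNA per cell, which cannot be told apart. Titles number the placebo libraries 1 to 3 at each of the 4 sites, so the sites may come from the same mice, but the labels do not say what a number marks. Whether the authors' model paired them is not given, and pairing was not tested. The labels also do not say that the libraries of a group are separate mice, so p-values cover only library-to-library spread, part of which may be technical. Unexposed skin is called back skin in the file headers, so body site and exposure cannot be told apart. In placebo lesional over non-UV skin 4 of 7 HoxC genes, which mark body position, were lower, beside 8.17% of all genes. Of 17 HoxA and HoxB genes 4 were higher, beside 10.2% of all genes, by the authors' deposited table. In non-lesional over non-UV skin 0 of 7 HoxC and 1 of 16 HoxA and HoxB genes changed, beside 1.66% of all genes. The HoxA and HoxB genes still had a median log2 fold change of 1.11 there, beside 0.79 in lesional over non-UV skin. Of the 16, 14 were positive and 8 had an unadjusted p under 0.05 by DESeq2's Wald test. The HoxC genes had a median of -0.73 there, with 6 of 7 negative, beside -1.08 in lesional over non-UV skin. In GZ21T over placebo lesions 1 of 5 HoxC genes, Hoxc4, was higher, beside 3.61% of all genes changed. Hoxc13, among the lower HoxC genes, is also in the hair follicle list below.

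The tables hold a log2 fold change, a Wald statistic and p-values for each gene, and no values per library, so no level or depth can be given, nor how many libraries share a direction. Values below are log2 fold changes ± SE, where the SE is the fold change over its Wald statistic. A gene was called changed at an adjusted p under 0.05. Of the 10 genes 8 carried an adjusted p in all 4 tables. Hey1 had none in non-lesional over non-UV skin or in GZ21T over placebo lesions and Dll4 had none in the latter, and the sources used here do not give the reason. Keratins that define epidermis, Krt5, Krt14, Krt1 and Krt10, carried an adjusted p in all 4 tables. The genes lie on GRCm38 as follows in GENCODE release M21. Notch1 is at chromosome 2, 26457903 to 26516663, minus strand, and Jag1 at chromosome 2, 137081456 to 137116644, minus strand. Dll4 is at chromosome 2, 119325784 to 119335962, plus strand, Jag2 at chromosome 12, 112907819 to 112929776, minus strand, and Dll1 at chromosome 17, 15367354 to 15376872, minus strand. Notch2 is at chromosome 3, 98013527 to 98150361, plus strand, and Notch3 at chromosome 17, 32120820 to 32166852, minus strand. Of the targets Hes1 is at chromosome 16, 30064384 to 30067796, plus strand, Hey1 at chromosome 3, 8663359 to 8667256, minus strand, and Nrarp at chromosome 2, 25180758 to 25183339, plus strand. For 5 of the 10, Notch1, Notch3, Dll1, Dll4 and Nrarp, an annotated gene overlaps on the opposite strand. Whether reads were counted by strand is not given in the sources used here, so reads of such pairs may be mixed.

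Upstream sequence is shown for 3 of the genes that changed in lesions and for Nrarp, a target gene. Each is the 250 bases before the RefSeq start of transcription on GRCm38.p6, written 5′ to 3′ on the strand of the gene. Capitals mark a match to CACGTG, the E-box that HES and HEY proteins and other basic helix-loop-helix factors can bind.
Notch1 (chr2:26503823-26504072, minus): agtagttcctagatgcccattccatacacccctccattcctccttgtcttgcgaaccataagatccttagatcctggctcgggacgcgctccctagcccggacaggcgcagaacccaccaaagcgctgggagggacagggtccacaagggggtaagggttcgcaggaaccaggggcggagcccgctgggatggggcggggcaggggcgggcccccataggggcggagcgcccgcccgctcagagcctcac
Dll1 (chr17:15376933-15377182, minus): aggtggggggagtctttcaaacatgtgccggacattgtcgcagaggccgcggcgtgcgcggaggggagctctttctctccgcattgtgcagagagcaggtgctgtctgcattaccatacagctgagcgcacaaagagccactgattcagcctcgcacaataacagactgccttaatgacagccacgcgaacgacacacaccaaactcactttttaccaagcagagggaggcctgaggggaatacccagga
Dll4 (chr2:119325534-119325783, plus): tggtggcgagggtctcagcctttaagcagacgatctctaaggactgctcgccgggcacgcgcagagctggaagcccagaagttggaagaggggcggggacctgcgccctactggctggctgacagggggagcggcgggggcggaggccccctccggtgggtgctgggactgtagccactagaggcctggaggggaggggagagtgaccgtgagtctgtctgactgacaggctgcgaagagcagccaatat
Nrarp (chr2:25180508-25180757, plus): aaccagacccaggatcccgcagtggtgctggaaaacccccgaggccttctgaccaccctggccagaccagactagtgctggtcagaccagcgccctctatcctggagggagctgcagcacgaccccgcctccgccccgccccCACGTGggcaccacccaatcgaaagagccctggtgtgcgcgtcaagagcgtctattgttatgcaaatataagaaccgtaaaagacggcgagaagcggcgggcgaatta
The RefSeq table held windows for 8 of the 10 genes, and Hes1 and Hey1 had no entry. The core of the RBPJ site, TGGGAA on either strand, was found in 0 of these 8, beside 24.1% of all 27025 genes with a window of the same length. Its longer form CGTGGGAA, which contains the core, was found in 0 of 8, beside 0.747% of all genes. The E-box CACGTG, which reads the same on both strands, was found in 1 of 8, in Nrarp at 108 bases before the start, beside 6.86% of all genes. The Notch1 window lies inside the longer span that GENCODE gives the gene, upstream of a RefSeq start within it. These matches describe letters in a short window and say nothing of binding elsewhere. The windows were rich in G and C: 66.0% in Notch1, 56.0% in the Dll1 window shown, 65.6% in Dll4 and 61.2% in Nrarp, beside a median of 52.4% over all windows.

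Placebo lesions were compared with non-UV-exposed skin, the comparison that spans exposure and lesion together. Notch1 and the ligands Dll1 and Jag2 fell, the ligands Jag1 and Dll4 rose, and none of the target genes Hes1, Hey1 and Nrarp passed the test. In all 5 of 10 genes changed, 2 higher and 3 lower, beside 18.3% of all 15201 genes called in the authors' deposited table, 10.2% higher and 8.17% lower. The median log2 fold change of the 10 genes was 0.16, beside 0.08 over all genes tested, with 5 values positive and 5 negative. The Wald statistics of this table spread 1.92 times as widely around their median as a standard normal. That spread was taken over all genes tested, and genes that truly changed widen it as well. When that spread was taken as the null, 0 of the 10 genes were called, with adjusted p from 0.90 for Notch1 to 0.94 for Jag1 and Jag2, and 0.0921% of all genes were called.

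**Figure D1:**
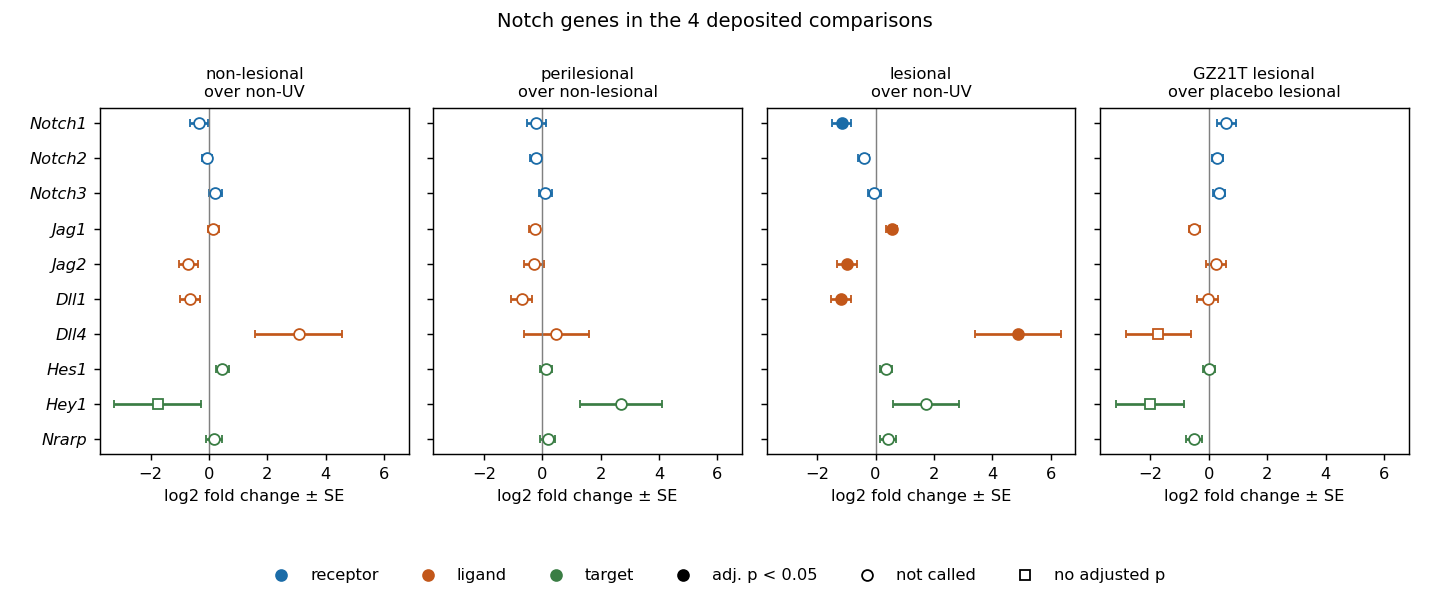
Log2 fold change ± SE (horizontal axis) of the 10 Notch genes (vertical axis) in the 4 deposited comparisons, 3 libraries per group, coloured by role. Filled points mark an adjusted p under 0.05 and squares mark genes without an adjusted p. Filled points occur for Notch1, Jag1, Jag2, Dll1 and Dll4 in lesional over non-UV skin, and in none of the other 3 panels.

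Among the receptors, Notch1, the main Notch receptor of keratinocytes, stood at -1.16 ± 0.32 in lesional over non-UV skin by the authors' deposited table (adjusted p = 0.0046), which is 0.449 of the non-UV level. Notch2, its close relative in epidermis and other tissues, stood at -0.41 ± 0.18 (adjusted p = 0.11) by the authors' deposited table. Notch3, a receptor best known from smooth muscle and pericytes, stood at -0.04 ± 0.22 (adjusted p = 0.93) by the authors' deposited table, with a 95% interval from -0.47 to 0.39. All 3 receptors thus had negative values and 1 of 3 was called. Centred on the median of all genes, Notch2 stood at -0.49 and passed as well (adjusted p = 0.046, Wald statistic with Benjamini-Hochberg adjustment).

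All 4 ligands passed the test. Dll1, a Delta-like ligand found on basal keratinocytes, stood at -1.18 ± 0.35 by the authors' deposited table (adjusted p = 0.0094), or 0.441 of the non-UV level. Jag2, a Jagged ligand also known from the basal layer, stood at -0.98 ± 0.34 by the authors' deposited table (adjusted p = 0.028), or 0.505 of that level. Jag1, a Jagged ligand of upper epidermal layers and follicles, stood at 0.55 ± 0.19 by the authors' deposited table (adjusted p = 0.023), or 1.47 times that level. Centred on the median of all genes, Jag1 stood at 0.47 and was not called (adjusted p = 0.057). Dll4, the Delta-like ligand of arterial and sprouting endothelium, stood at 4.88 ± 1.48 by the authors' deposited table (adjusted p = 0.01). Its SE was 4.31 times the median SE of the genes tested and its 95% interval ran from 1.98 to 7.79, so its direction is better known than its size.

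Markers of endothelium moved with Dll4 in lesional over non-UV skin. Of 12 endothelial genes 4 were higher and none lower, all 12 had positive values, and their median was 2.41 in lesional over non-UV skin, by the authors' deposited table. Kdr, a receptor for vascular endothelial growth factor, stood at 3.73 ± 1.13 (adjusted p = 0.01) and Pecam1, an adhesion molecule of endothelium, at 2.50 ± 0.96 (adjusted p = 0.049) by the authors' deposited table. Notch4, the receptor of endothelium, rose with 2.35 ± 0.75 (adjusted p = 0.016) by the authors' deposited table. The endothelial genes Emcn and Egfl7 were higher as well. Among 10 pericyte and smooth muscle genes 2 were higher, Acta2 and Mcam, and the median was 1.64, while Notch3 had the value near 0 given above. In non-lesional over non-UV skin, where Dll4 stood at 3.07 ± 1.50 and was not called, the 12 endothelial genes had a median of 0.55. There 11 of the 12 were positive and 0 had an unadjusted p under 0.05 by DESeq2's Wald test. The tables give no summed level of these lists in each group, and the part of vessel content in the Dll4 result was not tested.

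Markers of other skin cell types moved beside Notch1, Dll1 and Jag2. Of 10 basal keratinocyte genes 1 was higher and 3 lower with a median of -0.15, and of 9 suprabasal genes 1 was higher and 3 lower with a median of -0.36, by the authors' deposited table. The basal keratins differed among themselves by the authors' deposited table: Krt14 stood at 0.95 ± 0.35 (adjusted p = 0.038), Krt5 at 0.02 ± 0.36 (adjusted p = 0.98) and Krt15, a keratin of basal and follicular stem cells, at -2.78 ± 0.46 (adjusted p = 4.7e-07). Of 13 hair follicle genes 3 were lower and all 13 had negative values, with a median of -2.06. The other called genes were Col17a1 and Dst, lower, in the basal list, Lor, Dsg1a and Sbsn, lower, and Dsc1, higher, in the suprabasal list, and Msx2, Hoxc13 and Dsg4, lower, in the hair list. Notch1, Dll1 and Jag2 are known in hair follicles as well. Sebaceous genes were higher in 3 of 8, Scd1, Elovl3 and Fa2h, with a median of 1.22. Of 7 T cell genes Cd8a was higher and Cd3e and Cd3g were lower, and of 8 fibroblast genes Fbln1 was higher. All 8 skeletal muscle genes had positive values with a median of 1.95, and 0 were called or had an unadjusted p under 0.05 by DESeq2's Wald test. Of 7 macrophage and dendritic cell genes 0 were called and 2 had an unadjusted p under 0.05 by the same test. The part of these cell types in the values of the Notch genes was not tested.

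**Figure D2:**
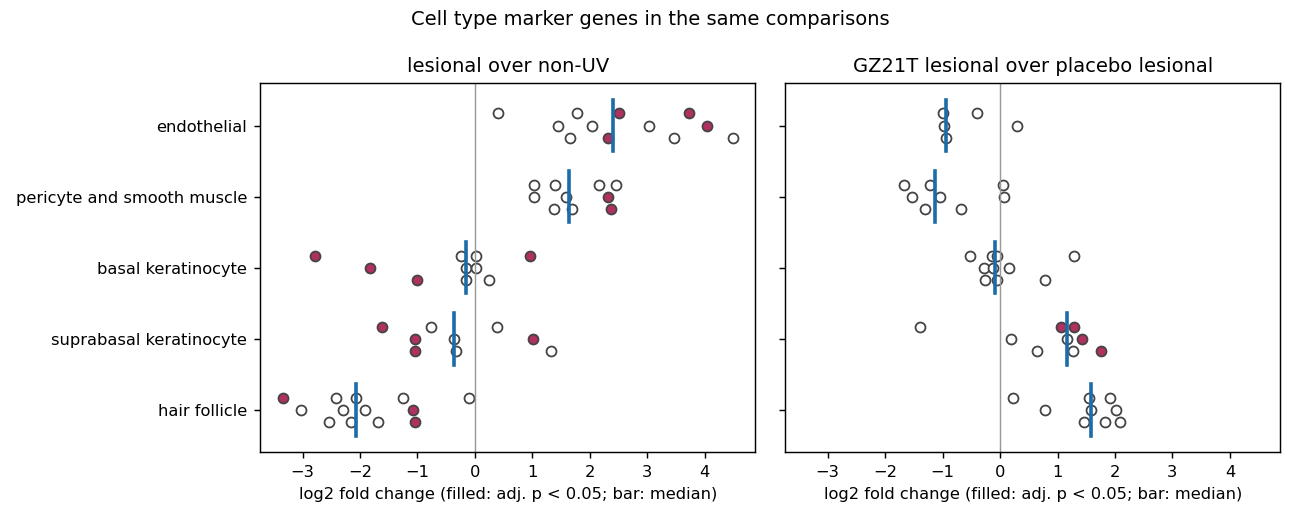
Log2 fold changes (horizontal axis) of marker genes of 5 cell types (vertical axis) in lesional over non-UV skin and in GZ21T over placebo lesions, from the deposited tables. Each point is a gene, filled points have an adjusted p under 0.05 and bars are medians. Endothelial genes had a median of 2.41 over 12 genes in the first comparison and of -0.94 over 5 in the second. Hair follicle genes had a median of -2.06 over 13 genes and of 1.58 over 9. The placebo lesional libraries enter the 2 comparisons with opposite sign.

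The target genes had positive values that did not pass the test. Hes1, a repressor of transcription and a direct target of Notch, stood at 0.36 ± 0.22 (adjusted p = 0.25) in lesional over non-UV skin by the authors' deposited table. Nrarp, a small ankyrin repeat protein that is induced by Notch and dampens it, stood at 0.43 ± 0.27 (adjusted p = 0.27) by the authors' deposited table. Hey1, a repressor related to Hes1 and a target of Notch in vessels, stood at 1.74 ± 1.13 (adjusted p = 0.29) by the authors' deposited table. Their 95% intervals ran from -0.07 to 0.79 for Hes1, from -0.10 to 0.96 for Nrarp and from -0.48 to 3.95 for Hey1. A fall of Hes1 or Nrarp as large as that of Notch1 therefore lies outside these intervals, while a rise is not separated from 0.

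The steps between sites were then compared to see where along the series the differences lay. Irradiated non-lesional skin was set against non-UV skin first, and 0 of the 9 genes tested changed by the authors' deposited table, beside 1.66% of all genes called, while 3 had an unadjusted p under 0.05 by DESeq2's Wald test. These were Jag2 at -0.70 ± 0.34 (adjusted p = 0.45), Hes1 at 0.45 ± 0.22 (adjusted p = 0.44) and Dll4 at 3.07 ± 1.50 (adjusted p = 0.46) by the authors' deposited table. Dll1 stood at -0.65 ± 0.35 (adjusted p = 0.55) and Notch1 at -0.34 ± 0.32 (adjusted p = 0.86) by the authors' deposited table. Hey1 stood at -1.76 ± 1.50, without an adjusted p, by the authors' deposited table. The remaining genes, Notch2, Notch3, Jag1 and Nrarp, lay between -0.06 and 0.22.

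Perilesional skin over non-lesional skin, both irradiated, gave 0 of 10 genes changed by the authors' deposited table, beside 0.112% of all genes called, and 1 had an unadjusted p under 0.05 by DESeq2's Wald test. That gene was Dll1, at -0.70 ± 0.35 (adjusted p = 0.63) by the authors' deposited table. Hey1 had the largest value, 2.70 ± 1.39 (adjusted p = 0.65), by the authors' deposited table, and the 3 receptors lay between -0.22 and 0.10. Hair follicle genes had a median of -3.66 here and sebaceous genes one of 2.28, with 1 of 13 lower and 3 of 8 higher. The non-lesional libraries enter this comparison and the one before it with opposite sign.

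Lesional over perilesional skin was derived from 3 of the tables, since no deposited table sets these sites against each other. Its SE holds only if the authors fitted the groups together with no other term. Jag1 was the gene of the 10 that changed there, 1 higher and none lower of 9 tested, beside 0.68% of all 14121 genes called and 0.411% called higher. Jag1 stood at 0.67 ± 0.19 (adjusted p = 0.049), beside 0.55 in lesional over non-UV skin. That call lies at the threshold: it was lost when the fold changes were centred on the median (adjusted p = 0.089), when all genes with a p-value were adjusted together (adjusted p = 0.058), when the largest deposited SE was used (adjusted p = 0.064), when SEs were summed as if independent (adjusted p = 1) and when the spread of all genes was taken as the null (adjusted p = 0.38). Notch1 stood at -0.62 ± 0.32 (adjusted p = 0.46) and Notch3 at -0.35 ± 0.22 (adjusted p = 0.56). Dll1 and Jag2, which fell in lesions against non-UV skin, stood at 0.17 ± 0.36 (adjusted p = 0.93) and 0.01 ± 0.34 (adjusted p = 1) against perilesional skin. Dll4 stood at 1.32 ± 1.09 (adjusted p = 0.70).

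Perilesional over non-UV skin, the sum of the first 2 steps, gave negative values for the same ligands outside the lesion. Dll1 stood at -1.35 and Jag2 at -1.0 there, beside -1.18 and -0.98 in lesions. The SE of this sum has an upper bound of 0.50 for Dll1 and 0.48 for Jag2, with which neither was called (adjusted p = 0.21 and 0.45) and 0 of 9 genes changed, beside 0.687% of all genes called, while 2 of the 9 had an unadjusted p under 0.05 by the Wald statistic. With the largest deposited SE in its place, 0.35 and 0.34, both were called (adjusted p = 0.0046 and 0.043), beside 8.74% of all genes called with that SE. The bound also assumes that the groups were fitted together with no other term. The labels do not state the model, so which SE holds is not known. Notch1 stood at -0.54 with a bound of 0.45 (adjusted p = 0.79), and lesional over non-lesional skin, derived with a bound of the same kind, gave Notch1 -0.82 with a bound of 0.45 (adjusted p = 0.70), 0 of 9 genes changed beside 0.0% of all genes called, and 0 with an unadjusted p under 0.05 by the Wald statistic.

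**Figure D3:**
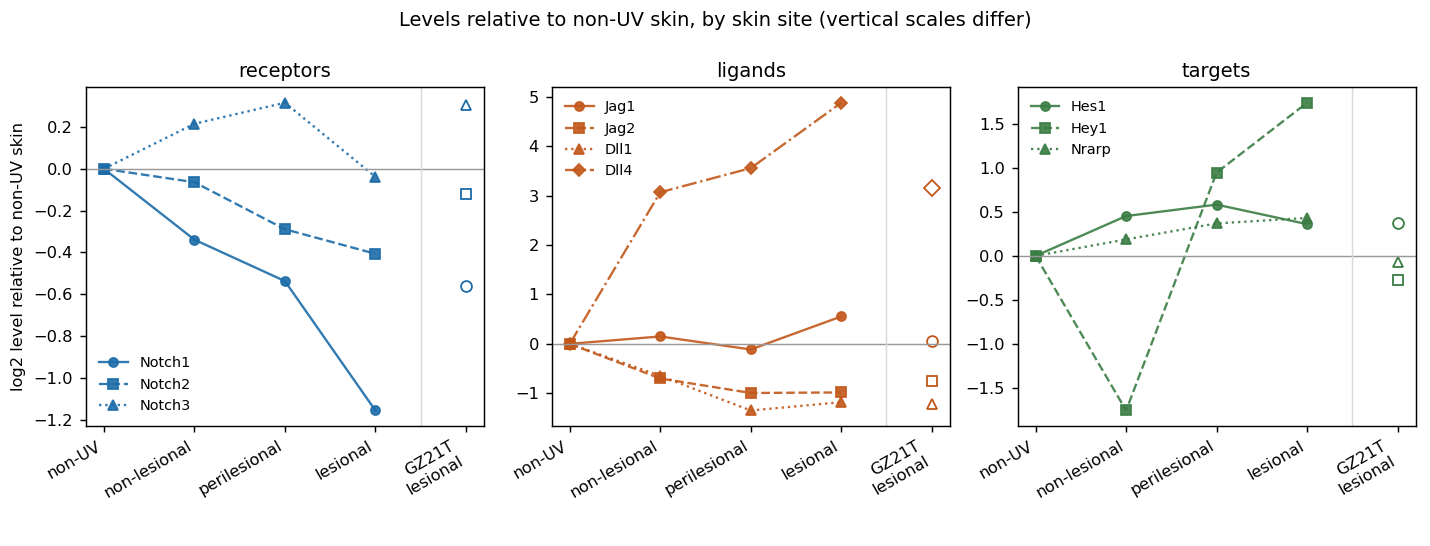
Log2 levels relative to non-UV skin (vertical axis, with a different scale in each panel) of receptors, ligands and targets at the 4 placebo sites and, as open symbols, in GZ21T lesions (horizontal axis). Points are sums of deposited fold changes without error bars. Notch1 stood at -0.34, -0.54 and -1.16 in non-lesional, perilesional and lesional skin, while Dll1 stood at -0.65, -1.35 and -1.18.

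Set in order of level, the sites differed between genes. Notch1 was highest in non-UV skin, followed by non-lesional, perilesional, GZ21T lesional and placebo lesional skin, a range of 1.16. Jag1 was highest in placebo lesions, at 0.55, and lowest in perilesional skin, at -0.11. Hes1 stayed within 0.58 over the 5 groups and Nrarp within 0.50. Of the 40 pairs of groups that neighbour each other in these orders over the 10 genes, 30 had a test. Of these 0 were called by the Wald statistic. The pairs were picked by sorting these same values, which favours small gaps, so the count describes the orders only. Whether neighbouring levels are separated cannot be read from it. Groups further apart were called for some genes, as in placebo lesional over non-UV skin for Notch1, Dll1 and Jag2.

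GZ21T-treated lesions were compared with placebo lesions to ask what the cream changed. Of the 8 genes tested 0 changed by the authors' deposited table, beside 3.61% of all 10899 genes called, and 1 had an unadjusted p under 0.05 by DESeq2's Wald test. That gene was Jag1, lower with -0.50 ± 0.19 (adjusted p = 0.088) and a 95% interval from -0.87 to -0.13, with the sign turned from the authors' deposited table. At an adjusted p under 0.1 it was the 1 gene of the 10 called, beside 10% of all genes. Notch1 stood at 0.59 ± 0.32 (adjusted p = 0.25), Notch3 at 0.34 ± 0.22 (adjusted p = 0.34) and Notch2 at 0.28 ± 0.18 (adjusted p = 0.35), again with the sign turned from the authors' deposited table. All 3 receptors thus had positive values, and their intervals, from -0.03 to 1.22 for Notch1, include 0. Nrarp stood at -0.50 ± 0.27 (adjusted p = 0.26) and Hes1 at 0.01 ± 0.21 (adjusted p = 0.99), turned from the authors' deposited table. The 95% interval of Hes1 ran from -0.41 to 0.43, whereas for Dll1, at -0.04 ± 0.36 (adjusted p = 0.97), it ran from -0.74 to 0.67. Wald statistics in this comparison spread 1.64 times as widely around their median as a standard normal, so these intervals may be too narrow. Genes that truly changed widen that spread as well, so it cannot show whether they are. Jag2 stood at 0.24 ± 0.34 (adjusted p = 0.73), and Dll4 and Hey1, without an adjusted p, at -1.72 ± 1.12 and -2.01 ± 1.17, turned from the authors' deposited table.

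This comparison shares the placebo lesional libraries with lesional over non-UV skin, where they enter with opposite sign. Side by side, Jag1 stood at 0.55 in placebo lesions over non-UV skin and at -0.50 in GZ21T over placebo lesions, and Notch1 at -1.16 and 0.59, by the authors' deposited tables. In GZ21T lesions over placebo non-lesional skin, which leaves those libraries out of both groups, Jag1 stood at -0.10 ± 0.19 and Notch1 at -0.22 ± 0.32 (adjusted p = 1 for each), and 0 of 8 genes changed, beside 0.0% of all genes called, with 0 at an unadjusted p under 0.05 by the Wald statistic. The Wald statistics of GZ21T lesions over placebo non-lesional skin spread 0.83 times as widely around their median as a standard normal. The derived SE may thus be too large there, and the absence of calls does not show equal levels. Against non-UV skin GZ21T lesions stood at -1.22 for Dll1, with an upper bound of 0.50 for the SE (adjusted p = 0.47), and at 0.05 for Jag1. With the largest deposited SE Dll1 was called there (adjusted p = 0.021), beside 4.59% of all genes called with that SE, while with the upper bound 0 of 8 genes changed, beside 0.606% of all genes called, and 1 had an unadjusted p under 0.05 by the Wald statistic.

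Suprabasal keratinocyte genes moved in the same comparison, with 4 of 9 higher under GZ21T, none lower and a median of 1.16. They include Krt1, a keratin of differentiating cells, at 1.42 ± 0.38 (adjusted p = 0.019), and Lor, the cornified envelope protein loricrin, at 1.76 ± 0.49 (adjusted p = 0.026), with the sign turned from the authors' deposited table. Dsg1a and Sbsn were the other 2 called, and Tgm3, a transglutaminase of the cornified layer, stood the other way at -1.40 ± 0.53 (adjusted p = 0.09), turned from the authors' deposited table. With the spread of all genes taken as the null, 0.0% of all genes were called in this comparison. Hair follicle genes had a median of 1.58 with 0 of 9 changed, and endothelial genes one of -0.94 with 0 of 5 changed by DESeq2's Wald test. The part of these cell types in the values of Notch1 and Jag1 was not tested.

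The wider pathway was read from 8 lists of 62 further genes. In lesional over non-UV skin 9 of 54 tested were called, 5 higher and 4 lower, by the authors' deposited table, a share close to the 18.3% of all genes, and their median was -0.11, beside 0.08 over all genes tested. None of these wider genes was called when the spread of all genes was taken as the null. Of 9 genes of receptor cleavage 2 were higher and 1 lower. Adam10, the protease that makes the first cut of an engaged receptor, stood at 1.01 ± 0.25 (adjusted p = 0.0015) and Furin, which trims the receptor on its way to the surface, at 0.86 ± 0.22 (adjusted p = 0.0019) by the authors' deposited table. Aph1c, a gamma-secretase subunit, stood at -1.99 ± 0.48 (adjusted p = 0.00093) by the authors' deposited table and at -1.80 ± 0.48 (adjusted p = 0.018) in non-lesional over non-UV skin, and was the gene of the 62 called there, 1 lower of 52 tested, a call that was also lost with that null. Aph1c has a near-identical neighbour in Aph1b, so how reads were split between them is uncertain.

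**Figure D4:**
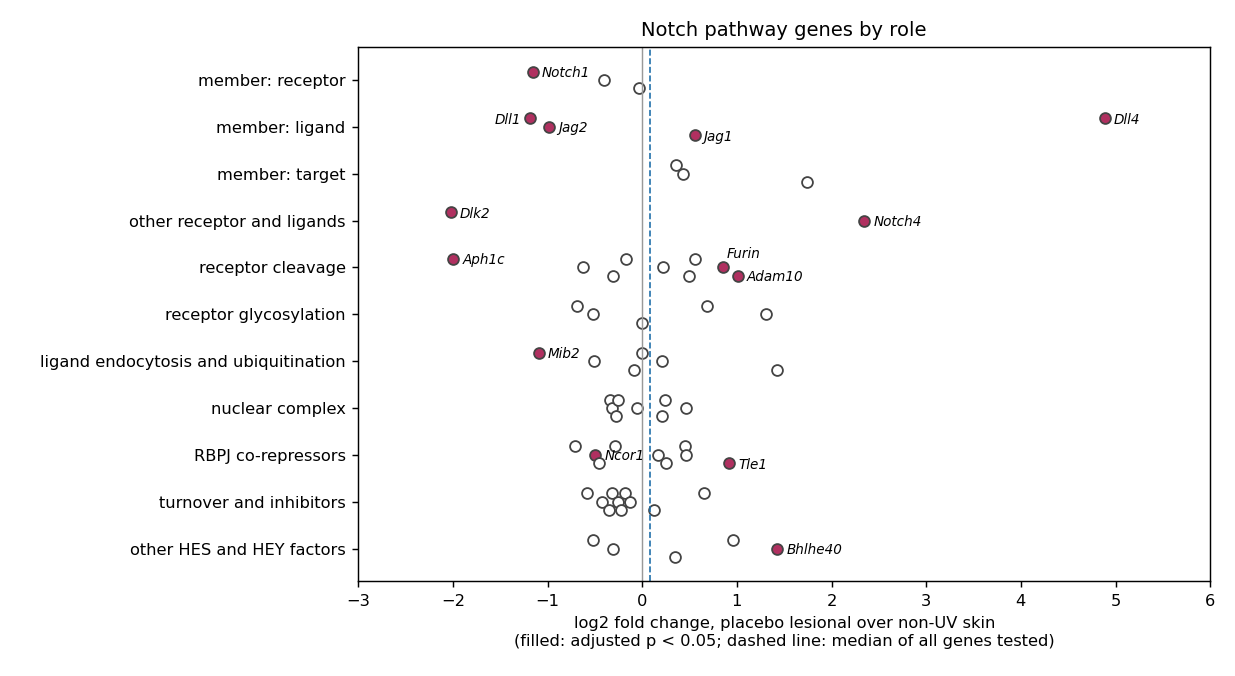
Log2 fold change in placebo lesional over non-UV skin (horizontal axis) of the 10 Notch genes and of the wider pathway genes tested, grouped by role (vertical axis). Each point is a gene and filled, named points have an adjusted p under 0.05. The nuclear complex, the glycosylation genes and the turnover genes hold no filled point, while 3 of 9 cleavage genes are filled.

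Genes outside cleavage changed one or a few per list. Mib2, a ubiquitin ligase that acts on ligands, stood at -1.09 ± 0.29 (adjusted p = 0.0032), and Dlk2, a Delta-like relative without the usual activating domain, at -2.02 ± 0.54 (adjusted p = 0.0029), by the authors' deposited table. Among co-repressors Ncor1 stood at -0.49 ± 0.17 (adjusted p = 0.028) and Tle1 at 0.92 ± 0.31 (adjusted p = 0.023), and among related helix-loop-helix factors Bhlhe40, which also responds to low oxygen and the clock, stood at 1.43 ± 0.38 (adjusted p = 0.0027), by the authors' deposited table. The nuclear complex had 0 of 8 called by DESeq2's Wald test, with values from -0.34 to 0.46. Rbpj, the DNA-binding core of that complex, stood at -0.25 ± 0.21 (adjusted p = 0.43) by the authors' deposited table. Receptor glycosylation had 0 of 5 and the turnover and inhibitor genes 0 of 10 called by the same test. In GZ21T over placebo lesions 0 of 48 were called and 9 had an unadjusted p under 0.05 by DESeq2's Wald test, and the smallest adjusted p belonged to the co-repressor Ctbp1 at -0.43 ± 0.15 (adjusted p = 0.065), with Adam10 at -0.69 ± 0.25 (adjusted p = 0.084), turned from the authors' deposited table.

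The genes with the most similar levels relative to non-UV skin were found by Euclidean distance over the 4 other groups, among 10899 genes that all 4 tables gave an adjusted p. The nearest to Notch1 was Mturn, at a distance of 0.08, beside a median distance of 1.54, the nearest to Jag1 was Dpy30, at 0.07, and the nearest to Dll1 was Ggta1, at 0.11. Within the family the nearest to Dll1 was Jag2, at 0.62, and 104 other genes were nearer to Dll1 than Jag2 was. For Notch1 the nearest member was also Jag2, at 0.64, with 737 genes nearer. These distances rest on 4 values per gene from shared libraries and describe these tables only.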

How the data were processed

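Mouse skin RNA was sequenced from stranded total RNA libraries, per the labels' protocols. Per the submitters' processing notes, Trim Galore, the builds GRCm38 and mm10, and DESeq2 were used. Aligner, counter, tool versions and model were not given in the sources used here. Per the file headers, the authors deposited 4 tables with a log2 fold change, a Wald statistic (a score, the fold change over its SE) and a p-value with its Benjamini-Hochberg adjusted p-value. Depth is therefore unknown, and 0 columns of values per library were found.

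After 25 symbols turned into dates were removed, 24027 were common to the tables. The name and the header of 1 table disagree on its reference, perilesional or back skin. Among 1423 genes listed at 0 for non-lesional against back skin, 704 were positive and 0 negative in it, and among 1195 listed at 0 for perilesional against non-lesional skin 271 were negative, so back skin, the non-UV group, was taken. The GZ21T table was turned in sign. The other 5 comparisons are sums and differences of deposited fold changes. Among 2235 flat genes the median SE ratio between tables lay between 0.986 and 1.004. Separate fits of groups of 3 could give such ratios as well. The symbols without a fold change were the same 5199 in all 4 tables, which separate fits need not give. Even so, 1 fit was assumed and not shown. If group was the only term in that fit, lesional over perilesional skin and GZ21T lesional over non-lesional skin have exact variances. The other 3 then have upper bounds. The authors' model is not given, so neither is assured. Their p-values are normal tails, adjusted with Benjamini-Hochberg over all genes with an adjusted p in the tables used. The arithmetic of the derivation was checked on simulated data with independent groups and no pairing. That check cannot show whether these assumptions hold for the authors' model. Scripts ran in Python 3.11.15 with pandas 2.3.3 and scipy 1.17.1. Members, gene lists and tests were chosen with earlier results of these data known. The rule named all 10 members, and of other lists the called genes and up to 4 with the smallest adjusted p per comparison. The text gives fewer of the latter, and Krt5 and Tgm3 were added after their values were seen. Alternatives were the null spread, centring, filters, an adjusted p under 0.1 and the SE of derived comparisons. Sequence of the remaining members is not shown, and 1 gene was left out of the wider lists and of their counts and is not reported here.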

Additional observations from a re-analysis of the deposited data

How the results depend on the processing

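No paired analysis was possible because the tables hold no values per library, and for the same reason no replicate block or left-out replicate could be fitted. With the null spread of the Wald statistic taken from the genes themselves, 0 members changed in lesional over non-UV skin and 0 in lesional over perilesional skin, and 0 wider pathway genes in lesional over non-UV or non-lesional over non-UV skin. That spread was taken over all genes tested, changed ones included, and its cause was not tested. Over genes that all 4 tables gave an adjusted p, 0 wider pathway genes changed in non-lesional over non-UV skin, since Aph1c is not among them. In lesional over perilesional skin 0 members changed with centring on the median, with no filter on low values, with the largest deposited SE and with SEs summed as if independent. At an adjusted p under 0.1 GZ21T over placebo lesions held 1 member, Jag1, beside 10% of all genes, and 4 wider genes, and lesional over non-UV skin 14 of 54 wider genes, beside 25% of all genes. With the largest deposited SE perilesional over non-UV skin held 2 members and 5 wider genes, beside 8.74% of all genes, GZ21T lesional over non-UV skin 1 member, beside 4.59%, and lesional over non-lesional skin 1 wider gene, beside 4.75%. Centring on the median turned the sign of 2 values near 0, to 0.022 for Dll1 in GZ21T over placebo lesions and to -0.039 for Jag2 in lesional over perilesional skin. Of the recomputed counts 94 stayed within 1.5 times of those given and 16 moved, as listed. The low precision of Dll4 and Hey1 limits what can be said of their size.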
